A study of Mus musculus with 18 samples.

Results

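The genes described here are 10 integrin chains of type 1 lymphocytes, 6 alpha chains (Itga1, Itga2, Itga4, Itgal, Itgam and Itgae) and 4 beta chains (Itgb1, Itgb2, Itgb3 and Itgb7), chosen by symbol. They are 10 of the 54309 genes in the deposited lymphocyte count table. NK cells and group 1 innate lymphoid cells (ILC1) were sorted from livers of female C57BL/6J mice, aged 8 to 10 weeks, that had received the mouse colon adenocarcinoma line MC38 into the spleen and were analysed on day 20. Cells came either from liver metastases (LM) or from the metastasis-free liver (MFL) of tumour-bearing animals, with 6 to 8 samples pooled for a sort, so no group comes from animals without tumour and each library is a pool. All cells were live, lineage-negative, CD45+ and NKp46+.

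The 4 populations, with 3 libraries each, were MFL NK cells (CD49a- CD49b+), LM CD49a- NK cells (CD49a- CD49b+), LM CD49a+ NK cells (CD49a+ CD49b+) and MFL ILC1 (CD49a+ CD49b-). The titles of the LM CD49a+ libraries carry the abbreviation ILC1, whereas their cell type label and gate are those of CD49a+ NK cells, and the latter name is used. CD49a is the product of Itga1 and CD49b that of Itga2, so Itga1 differences between CD49a+ and CD49a- cells, and Itga2 differences between ILC1 and the CD49b+ NK cells, were set by the sort and are given as a description. Itga1 between both CD49a+ populations, and Itga2 among the NK cells, which were all CD49b+, differed within a gate. The other 8 chains were not part of the gate. The study had already named several of these genes from the same libraries, so their direction here is not independent evidence.

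Integrins are heterodimers of an alpha and a beta chain that hold cells to matrix and to other cells. The beta 1 chain pairs with alpha 1 and alpha 2 to bind collagen and laminin, and with alpha 4 to bind VCAM-1 and fibronectin. The beta 2 chain pairs with alpha L to form LFA-1, the leukocyte receptor for ICAM-1, and with alpha M to form Mac-1. The beta 7 chain pairs with alpha 4 or with alpha E, and the beta 3 chain with alpha V or alpha IIb. In mouse liver, CD49a marks ILC1 and CD49b marks circulating NK cells. CD11b, the alpha M chain, rises as NK cells mature.

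Library totals ran from 8795721 to 14386834 counts in the lymphocytes. Values are CPM, counts scaled to the library total after trimmed-mean (TMM) normalization, and differences are log2 fold changes ± SE from edgeR's quasi-likelihood test, called at a Benjamini-Hochberg adjusted p under 0.1 over all 13594 genes tested. All 10 chains passed the filter on low counts. The common biological coefficient of variation was 1.22 for LM CD49a- and 1.07 for LM CD49a+ libraries, against 0.65 for ILC1 and 0.51 for MFL NK libraries. Libraries from metastases thus varied more among themselves. The 6 type 1 lymphocyte markers, which include Ncr1, Tbx21 and Ptprc, were present in all populations, with sums of 7462 to 9739 CPM. The NK marker Eomes stood at 500 to 1147 CPM in the 9 NK libraries and at 7.58 to 40.2 CPM in ILC1. Cxcr6, an ILC1 marker, stood at 126 to 182 CPM in ILC1 and at no more than 5.55 CPM elsewhere. All 7 ILC1 markers listed summed to 1408 to 1471 CPM in ILC1 and to 198 to 208 CPM in LM CD49a+ NK cells. They summed to 22.7 to 30.1 CPM in MFL NK cells and to 24.8 to 66.2 CPM in LM CD49a- NK cells.

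Itga1 and Itga2 lie side by side on the minus strand of chromosome 13, with 20995 bases and 0 annotated coding genes wholly between them. The coding gene Mocs2, on the opposite strand, overlaps both and spans the gap, and did not exceed 31.8 CPM. In GRCm39 they span chr13:115089632-115238677 and chr13:114969617-115068636. Itgal (chr7:126895432-126934320) and Itgam (chr7:127661808-127717753) also share a chromosome, with 40 coding genes between them. Itga4 lies at chr2:79085660-79163467. The beta chains are dispersed, with Itgb1 at chr8:129411876-129460618, Itgb2 at chr10:77366086-77401542, Itgb3 at chr11:104498826-104561302 and Itgb7 at chr15:102124429-102140379. Itgae lies at chr11:72981409-73039917.

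RefSeq promoter windows were found for 6 of the 10 chains. The stretches of the 4 alpha chains that differed most between populations are shown, limited to bases before the first annotated transcript start in the window. Capitals mark matches, on either strand, to short motifs of the T-box family (GTGTGA), the RUNX family (TGTGGT), the ETS family (AGGAAG), AP-1 (TGANTCA), SMAD (GTCTAGAC) and the KLF family (CCACCC).
Upstream of Itga1, GRCm38.p6 chr13:115102142-115102214, minus strand: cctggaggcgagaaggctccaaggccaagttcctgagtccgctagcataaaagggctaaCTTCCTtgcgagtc
Upstream of Itga2, GRCm38.p6 chr13:114932101-114932350, minus strand: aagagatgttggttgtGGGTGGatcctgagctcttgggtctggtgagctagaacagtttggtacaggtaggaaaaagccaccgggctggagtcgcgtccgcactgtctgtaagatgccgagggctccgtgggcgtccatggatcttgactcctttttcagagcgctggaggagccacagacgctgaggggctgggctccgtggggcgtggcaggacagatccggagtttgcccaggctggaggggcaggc
Upstream of Itga4, GRCm38.p6 chr2:79255176-79255315, plus strand: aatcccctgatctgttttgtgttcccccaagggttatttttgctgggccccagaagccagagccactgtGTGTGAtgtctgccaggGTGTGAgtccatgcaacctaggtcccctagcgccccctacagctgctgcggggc
Upstream of Itgam, GRCm38.p6 chr7:128062390-128062635, plus strand: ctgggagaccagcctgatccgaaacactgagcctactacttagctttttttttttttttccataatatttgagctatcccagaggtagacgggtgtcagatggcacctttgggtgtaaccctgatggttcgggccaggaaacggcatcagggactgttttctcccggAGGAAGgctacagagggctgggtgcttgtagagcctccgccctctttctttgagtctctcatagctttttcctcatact

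The Itga4 stretch holds the T-box letters at 2 places, 181 and 164 bases before the RefSeq start, and at least 1 such match occurs in 14.5% of all 32851 windows of 300 bases. The Itga1 and Itgam stretches each hold the ETS letters once, as do 35.4% of all windows in at least 1 place. The Itga2 stretch holds the KLF letters, as do 31.5% of all windows. The whole Itga4 window also holds the RUNX letters 60 bases and the KLF letters 45 bases before the start, in bases not printed, and the RUNX letters occur in 16.8% of all windows. The AP-1 and SMAD letters occur in 7.81% and 0.213% of all windows. These shares are over whole windows, whereas the stretches printed are 73 to 250 bases long. These matches describe letters and do not show binding.

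**Figure D1:**
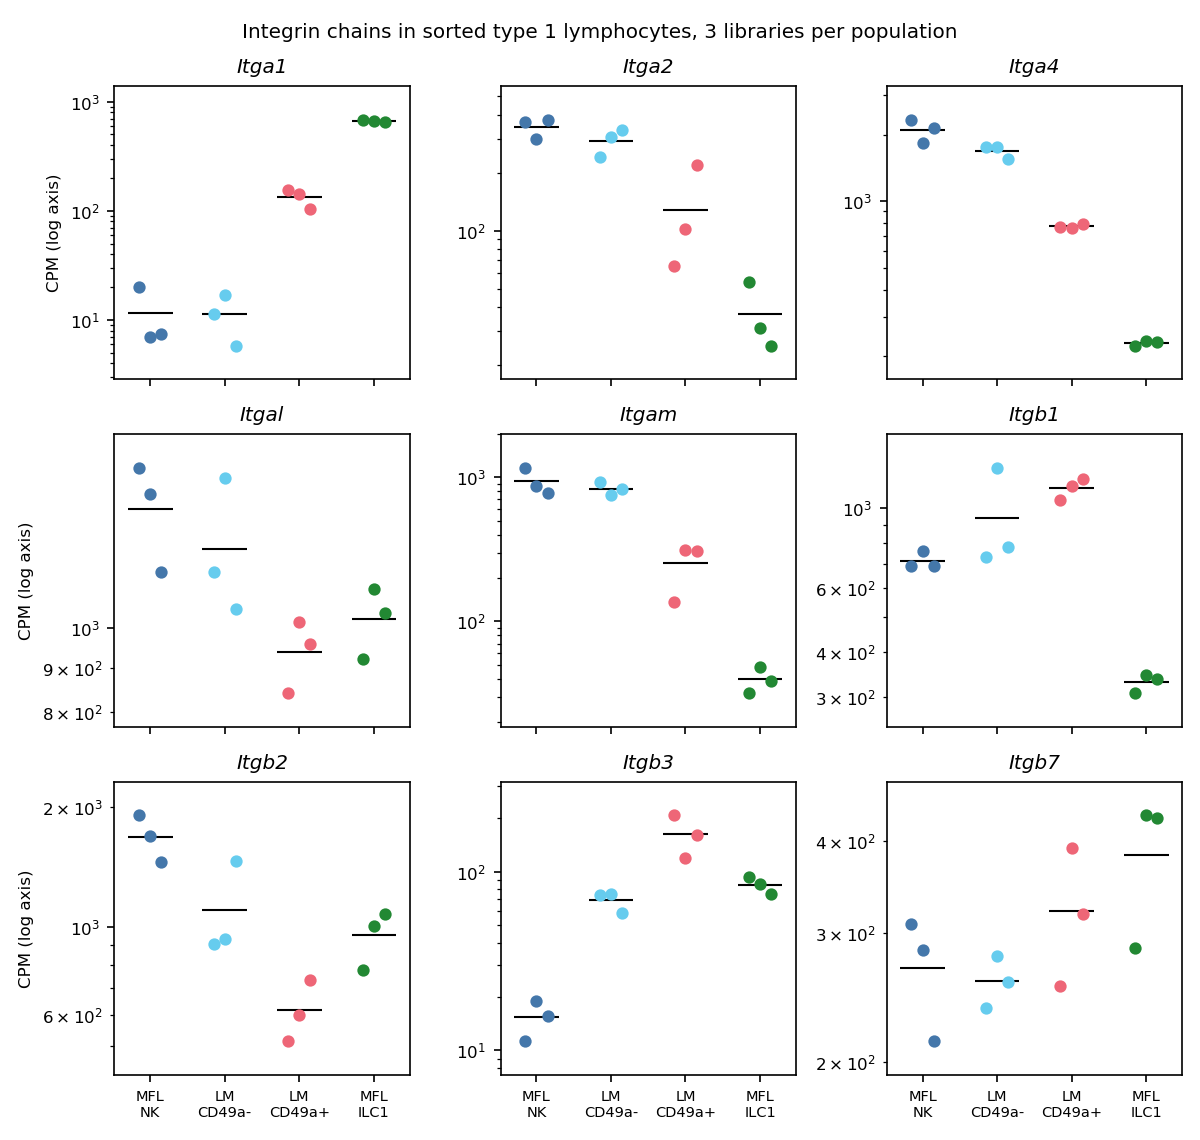
CPM of 9 integrin chains on log axes, with a point for each library and a bar at the mean of 3 libraries per population. Itga4 and Itgam step down from both CD49a- NK populations to LM CD49a+ NK cells and again to MFL ILC1, Itga1 steps up, and Itgb3 is lowest in MFL NK cells; Itgae, near 0 in most libraries, is left out.

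Itga1, the CD49a chain used for the gate, stood at 20.1, 6.93 and 7.42 CPM in the 3 MFL NK libraries and at 11.4, 17.1 and 5.83 CPM in LM CD49a- NK cells. LM CD49a+ libraries held 156, 143 and 105 CPM. In MFL ILC1 it reached 680, 664 and 646 CPM. Both CD49a+ populations lay above both CD49a- populations in every library, which the gate fixes. Within the CD49a+ gates the LM NK cells held 4.94-fold less Itga1 RNA than ILC1, and their libraries did not overlap. In bulk libraries such a difference cannot be separated into fewer cells carrying the RNA and less RNA per cell, and this holds for every gene below. Several annotated genes overlap Itga1. Pelo, on the same strand, was highest in ILC1, at 27.7 to 30.7 CPM, stood at 7.17 to 10.01 CPM in LM CD49a+ NK cells and did not exceed 7.96 CPM in CD49a- cells.

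Itga2, the CD49b chain, stood at 364, 299 and 376 CPM in MFL NK cells and at 241, 305 and 333 CPM in LM CD49a- NK cells. In LM CD49a+ NK cells, which were gated as CD49b+, it stood at 65.7, 102 and 219 CPM. ILC1, gated as CD49b-, held 54.2, 31.3 and 25.3 CPM. The 3 LM CD49a+ libraries thus lay apart from each other, between the other populations, and overlapped none of them. This spread bears on the test against MFL NK cells, where the change of -1.43 ± 0.37 had an adjusted p of 0.128 in edgeR with all 3 libraries and of 0.0109 without LM CD49a+ replicate 3.

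Itga4, the alpha chain that reads VCAM-1 and fibronectin, showed the tightest grading of the chains outside the gate. MFL NK cells held 2329, 1826 and 2137 CPM. In metastases, CD49a- cells held 1763, 1757 and 1544 CPM and CD49a+ cells 764, 756 and 794 CPM, and ILC1 held 224, 234 and 232 CPM. No 2 neighbours in this order overlapped, although LM CD49a- and MFL NK cells did not pass the test against each other (-0.31 ± 0.19, adjusted p = 0.834 in edgeR). The CD49a+ NK cells held 2.19-fold less than the CD49a- NK cells of metastases and 3.35-fold more than ILC1. Cerkl, which overlaps Itga4 on the opposite strand, did not exceed 33.4 CPM.

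Itgam, the CD11b chain of Mac-1, followed the same order with wider spread. It stood at 1165, 866 and 776 CPM in MFL NK cells and at 921, 758 and 821 CPM in LM CD49a- NK cells, whose libraries overlapped. It stood at 136, 314 and 309 CPM in LM CD49a+ NK cells and at 31.6, 48.5 and 38.6 CPM in ILC1. Both latter groups were separate from each other and from the CD49a- cells. Itgam is also a macrophage gene. The 8 macrophage markers summed to 4.11 to 11.8 CPM in MFL NK cells and to 0, 25.7 and 6.22 CPM in the CD49a- libraries of metastases. They summed to 0, 44.0 and 6.88 CPM in the CD49a+ libraries of metastases and to 9.59, 120 and 8.24 CPM in ILC1, where replicate 2 stood apart through Lyz2 (85.2 CPM). Adgre1, which defines macrophages, was at 0 in every LM library. Without ILC1 replicate 2 the log2 change of Itgam between ILC1 and MFL NK cells was -4.74, and -4.56 with it. A same-strand gene model, Gm49368, shares part of Itgam and reached 15.6 to 47.4 CPM in MFL NK cells against 0.439 CPM or less in ILC1, so its reads may be split between the 2 models.

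Itgal, the alpha chain of LFA-1, was called in none of the 5 comparisons by edgeR, and in ILC1 against MFL NK cells by limma-voom (adjusted p = 0.0116). Its libraries ranged from 1164 to 1537 CPM in MFL NK cells, 1053 to 1496 CPM in LM CD49a- NK cells, 840 to 1018 CPM in LM CD49a+ NK cells and 921 to 1112 CPM in ILC1. Every pair of neighbours in the order of means overlapped. Beyond neighbours, every LM CD49a+ and ILC1 library lay below every MFL NK library, at 1.47-fold and 1.34-fold less in mean CPM. The LM CD49a+ libraries also lay below the LM CD49a- libraries. Its log2 changes ran from -0.55 to -0.13 in edgeR, with an unadjusted p of 0.0193 for LM CD49a+ against MFL NK cells and over 0.05 in the other 4. Itgae, the CD103 chain, was not interpretable at this depth. The CD49a- NK libraries held 0, 12 and 22 counts from metastasis-free liver and 0, 0 and 5 from metastases. The CD49a+ NK libraries held 3, 33 and 0 counts, and ILC1 held 41, 0 and 0.

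Among the beta chains, Itgb3 was lowest in MFL NK cells, at 11.3, 19.0 and 15.6 CPM. It stood at 73.8, 75.3 and 58.8 CPM in LM CD49a- NK cells and at 93.6, 84.7 and 74.5 CPM in ILC1, which overlapped. The CD49a+ NK cells of metastases held the most, at 206, 119 and 160 CPM, above every other library. Platelets also carry Itgb3. Their marker Treml1 was at 0 in all 12 lymphocyte libraries and Gp9 had 1 count in all. The 6 platelet markers summed to 2.36 to 6.61 CPM in MFL NK cells, 2.97 to 5.12 CPM in ILC1 and 4.07 CPM or less in both LM populations, and their part in the Itgb3 values was not tested.

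Itgb1, the partner of alpha 1, alpha 2 and alpha 4, was lowest in ILC1, at 307, 346 and 337 CPM. It stood at 694, 762 and 690 CPM in MFL NK cells and at 1057, 1155 and 1207 CPM in LM CD49a+ NK cells. LM CD49a- libraries spread from 734 to 1296 CPM and overlapped both NK neighbours. Itgb2, the shared chain of LFA-1 and Mac-1, ran the other way in the NK cells. It stood at 1908, 1698 and 1459 CPM in MFL NK cells, at 907, 931 and 1462 CPM in LM CD49a- NK cells and at 516, 599 and 735 CPM in LM CD49a+ NK cells. ILC1 held 778, 1006 and 1075 CPM, above all LM CD49a+ libraries. Itgb7 ranged from 213 to 434 CPM over the 12 libraries, and each population overlapped its neighbours in the order of means. The ILC1 libraries, at 286 to 434 CPM, lay above those of LM CD49a- NK cells, at 237 to 279 CPM. No comparison was called for Itgb7 by edgeR. In ILC1 against MFL NK cells (0.51 ± 0.24) its unadjusted p was 0.0443 in edgeR, and limma-voom called it (adjusted p = 0.00028).

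**Figure D2:**
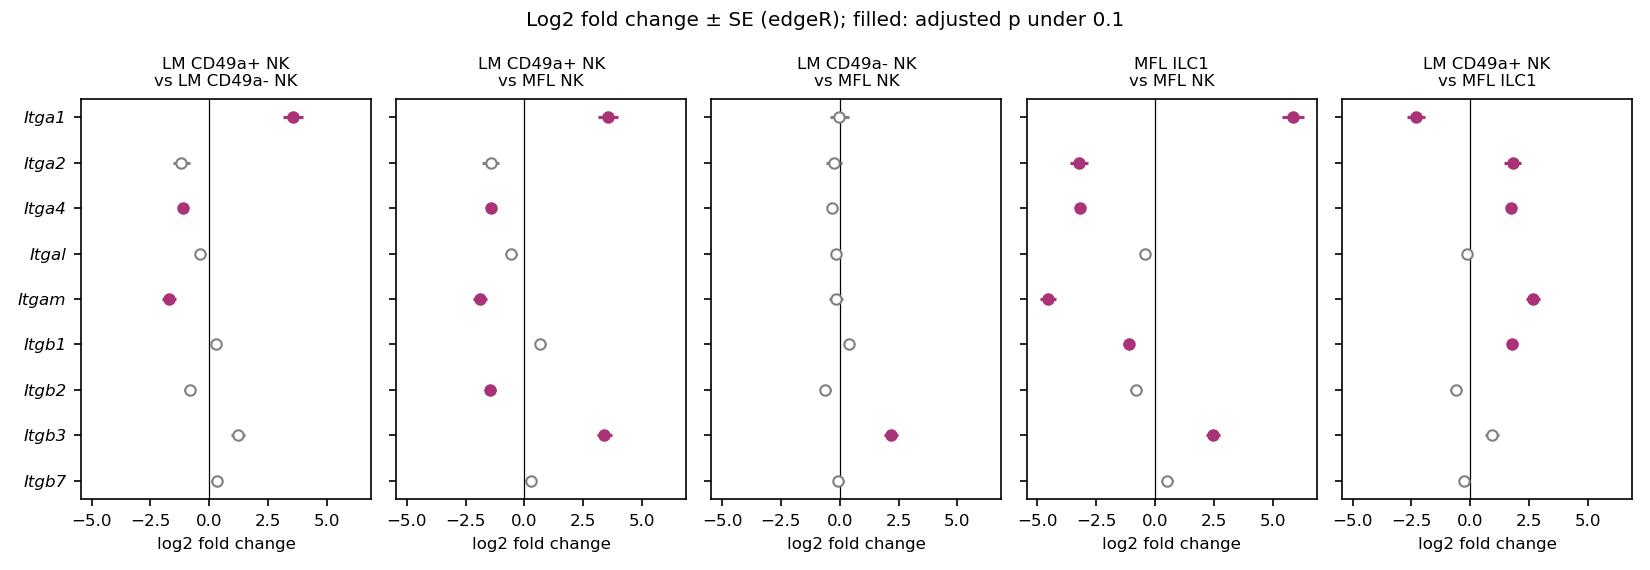
Log2 fold changes (x axes) of 9 integrin chains in 5 comparisons, with bars of ± SE from the edgeR fit of all 12 lymphocyte libraries; filled points passed an adjusted p under 0.1. Itga4 and Itgam lie left of 0 in LM CD49a+ NK cells against both NK populations and right of 0 against MFL ILC1.

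Within metastases, CD49a+ NK cells were compared with CD49a- NK cells from the same site to ask how the CD49a+ state differs there. Itga4 fell by 1.13 on the log2 scale (± 0.20, adjusted p = 0.0402) and Itgam fell by 1.72 (± 0.29, adjusted p = 0.0402), and the sort marker Itga1 was higher by 3.56 ± 0.42. With Itga1, 3 of 10 chains were called (1 higher, 2 lower), where 0.14% of all genes tested were (0.0662% higher, 0.0736% lower). Itga2, within the CD49b+ gate, changed by -1.19 ± 0.36 (adjusted p = 0.292). Itgb3 was higher in all 3 CD49a+ libraries (1.22 ± 0.30) and Itgb2 lower in all 3 (-0.84 ± 0.24), and neither passed the test (adjusted p = 0.226 and 0.281). In this design an exact two-sided permutation test of 3 against 3 libraries cannot give a p below 0.1, the value reached by every pair of populations whose libraries did not overlap. The call for Itga4 was lost without LM CD49a+ replicate 1 (adjusted p = 0.153), LM CD49a+ replicate 2 (0.106) or MFL ILC1 replicate 2 (0.103), and that for Itgam without LM CD49a+ replicate 1 (0.108). Both were lost in a fit of these 2 populations alone, at adjusted p of 0.922 for Itga4 and 0.431 for Itgam. With limma-voom 0 chains were called, at adjusted p of 0.128 for both Itga4 and Itgam, where 0% of all genes were. With DESeq2 6 chains were called, where 4.08% of all genes were.

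Set against MFL NK cells, LM CD49a+ NK cells differed in 5 of 10 chains (2 higher, 3 lower), against 0.647% of all genes (0.427% higher, 0.221% lower). Site and preparation cannot be told apart in this and the other comparisons across sites, since metastases were digested with enzymes for 30 minutes at 37 degrees Celsius and metastasis-free liver was dissociated mechanically. Itgb3 rose by 3.40 ± 0.32 (adjusted p = 4.25e-05), which is 10.6-fold in mean CPM. Itga1, counted among the 5 although set by the sort, was higher by 3.55 ± 0.42. Itga4 fell by 1.44 ± 0.20 (adjusted p = 0.00144), Itgam fell by 1.89 ± 0.29 (adjusted p = 0.00524) and Itgb2 fell by 1.45 ± 0.25 (adjusted p = 0.0112). These calls held without any 1 library. Itgb1 was higher in all 3 libraries (0.67 ± 0.23) and did not pass the test in edgeR (adjusted p = 0.344), whereas it did with DESeq2 (0.0615) and limma-voom (0.0181).

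CD49a- NK cells, gated alike at both sites, differed in 1 of 10 chains, against 0.0736% of all genes (0.0662% higher in metastases, 0.00736% lower). Itgb3 was higher in metastases by 2.18 ± 0.31 (adjusted p = 0.0116), 4.53-fold in mean CPM, with every LM library above every MFL library. The call was lost without MFL NK replicate 1 (adjusted p = 0.180) or replicate 3 (0.136), and in a fit of these 2 populations alone (0.339), whereas the log2 change stayed between 2.00 and 2.37 without any 1 library. The remaining well-detected chains changed by -0.62 to 0.39 and were not called. Itgb2 (-0.62 ± 0.24) and Itgb3 alone had an unadjusted p under 0.05, beside 914 of all 13594 genes.

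MFL ILC1 differed from MFL NK cells in 6 of 10 chains (2 higher, 4 lower), against 3.06% of all genes (1.38% higher, 1.68% lower). Of these 6, Itga1 and Itga2 were set by the sort. Outside the gate, Itgam fell by 4.56 ± 0.33 (adjusted p = 1.93e-07), a 23.7-fold difference in mean CPM, and Itga4 fell by 3.19 ± 0.21 (adjusted p = 6.28e-08), a 9.12-fold difference. Itgb1 fell by 1.12 ± 0.23 (adjusted p = 0.0091), whereas Itgb3 rose by 2.46 ± 0.31 (adjusted p = 9.81e-05). The gated chains moved as sorted, with Itga1 higher by 5.85 ± 0.46 and Itga2 lower (-3.23 ± 0.39). Itgb2 was lower in all 3 ILC1 libraries (-0.82 ± 0.24) and missed the threshold (adjusted p = 0.107), and it was called in 6 of the 7 other fits made with all libraries of the populations compared. The 6 T cell markers summed to 247 to 681 CPM in ILC1 against 4.98 to 35.7 CPM in the NK libraries, and Cd3g alone made 224 to 668 CPM of it. The other 5 each stayed at or below 11.6 CPM in ILC1, and the defining marker Cd3e at or below 0.366 CPM. The part of this signal in the integrin differences was not tested.

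The 2 CD49a+ populations, from metastases and from metastasis-free liver, differed in 5 of 10 chains (4 higher and 1 lower in the NK cells), against 3.58% of all genes (2.29% higher, 1.29% lower). NK cells held more Itgam (2.68 ± 0.30, adjusted p = 6.77e-05), Itgb1 (1.79 ± 0.23, adjusted p = 0.000237) and Itga4 (1.74 ± 0.20, adjusted p = 7.05e-05), besides the gated Itga2 (1.80 ± 0.37). Itga1 was lower (-2.30 ± 0.39). Itgb3 was higher in every NK library (0.94 ± 0.30) without passing the test (adjusted p = 0.133), and Itgb2 was lower in every NK library (-0.63 ± 0.24, adjusted p = 0.239). These 5 calls held without any 1 library. The LM CD49a+ libraries enter 3 of the 5 comparisons and MFL NK cells also enter 3, so the comparisons are not independent of each other.

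**Figure D3:**
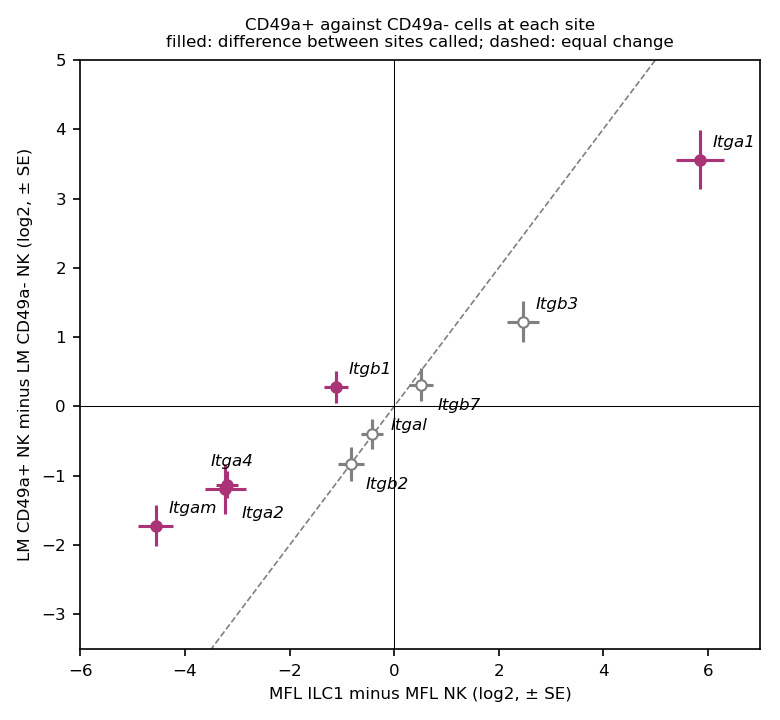
Log2 difference between CD49a+ and CD49a- cells in metastasis-free liver (x axis, ILC1 minus NK) and in metastases (y axis, CD49a+ NK minus CD49a- NK) for 9 integrin chains, with bars of ± SE; the dashed line marks equal change and filled points passed the test of the difference between sites. Itgb1 lies left of 0 in metastasis-free liver and just above 0 in metastases, and Itgal and Itgb2 lie close to the dashed line.

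The difference between CD49a+ and CD49a- cells in metastases was set against that in metastasis-free liver in an interaction term of the same fit. The CD49a+ cells are NK cells at one site and ILC1 at the other, so site and cell type cannot be told apart in this term. It was called for 5 of 10 chains (4 higher, 1 lower), against 1.03% of all genes (0.625% higher, 0.405% lower). Among these 5 are Itga1 and Itga2, which encode the sort markers. Itga4 and Itgam fell less in metastases, with differences between sites of 2.06 ± 0.28 (adjusted p = 0.00114) and 2.84 ± 0.41 (adjusted p = 0.00231), and both calls held without any 1 library. Itgb1 differed by 1.40 ± 0.32 (adjusted p = 0.0582), lower in ILC1 than in MFL NK cells and slightly higher, without a call, in LM CD49a+ than in LM CD49a- NK cells. The calls for Itga1, Itga2 and Itgb1 were lost in 10, 9 and 9 of the 12 fits without 1 library. Of 75 integrin-associated genes tested, described below, 6 were called in this term (4 higher, 2 lower). Itgb3, higher in CD49a+ cells at both sites, did not differ by this test (-1.24 ± 0.42, adjusted p = 0.356).

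Levels of different chains were compared as CPM per kilobase of merged exons. Among the 4 beta chains listed, Itgb2 was the most abundant in MFL NK cells, at 520 ± 69.3 CPM per kb (SD, n = 3). Among the 6 alpha chains listed, Itgal was the most abundant there, at 209 ± 29.3 CPM per kb. Other chains, such as Itgax and Itgav, did not enter these ranks and shares. Of the 6 alpha chains together, Itgal made up 36.98 ± 3.03% in MFL NK cells, 37.9 ± 4.73% in LM CD49a- NK cells, 54.7 ± 4.28% in LM CD49a+ NK cells and 72.8 ± 2.31% in ILC1 (SD, n = 3 each). Itgam made up 32.0 ± 2.61% in MFL NK cells, 33.1 ± 4.27% in LM CD49a- NK cells, 18.3 ± 5.22% in LM CD49a+ NK cells and 3.59 ± 0.54% in ILC1. Itga4 made up 22.2 ± 2.52%, 20.4 ± 0.67%, 17.8 ± 2.83% and 6.44 ± 0.29% in the same order. Itgal thus took a larger share in the CD49a+ populations, although its own mean level there was below that of MFL NK cells, without a call in edgeR. Itga1, which defines the CD49a gate, made up 14.6 ± 1.22% in ILC1 and 2.48 ± 0.84% in LM CD49a+ NK cells.

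**Figure D4:**
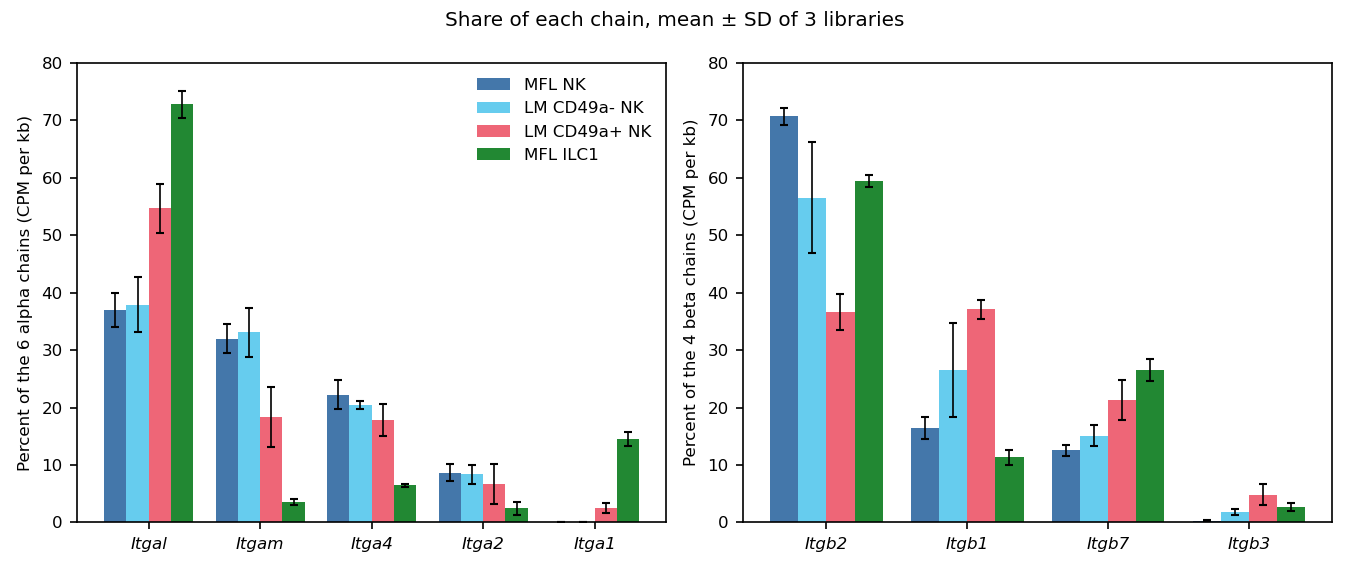
Share (percent, y axis) of each chain in the summed CPM per kilobase of the 6 alpha chains (left; Itgae, under 0.1% on average, not drawn) and of the 4 beta chains (right), as mean ± SD of 3 libraries per population. Itgb2 takes the largest beta share in 3 populations, and Itgb1 and Itgb2 overlap in LM CD49a+ NK cells.

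Of the 4 beta chains, Itgb2 made up 70.7 ± 1.49% in MFL NK cells, 56.6 ± 9.74% in LM CD49a- NK cells and 59.5 ± 1.03% in ILC1 (SD, n = 3 each). In LM CD49a+ NK cells Itgb2 made up 36.7 ± 3.12% and Itgb1 37.1 ± 1.62%, which overlapped. With the longest annotated transcript as gene length these became 35.0 ± 3.03% and 39.5 ± 1.59%. Itgb1 held 16.4 ± 1.92% in MFL NK cells and 11.3 ± 1.25% in ILC1. Itgb3 stayed a minor chain throughout, at 4.84 ± 1.80% in LM CD49a+ NK cells and 0.320 ± 0.095% in MFL NK cells. Itgb7 made up 26.6 ± 1.94% in ILC1 and 21.4 ± 3.49% in LM CD49a+ NK cells, against 15.1 ± 1.80% in CD49a- NK cells of metastases and 12.5 ± 0.91% in those of metastasis-free liver.

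A list of 96 integrin-associated genes, with 75 tested, covered other integrin subunits, activators, inhibitors, adaptors and kinases, membrane partners and ligands. Within metastases 1 of 75 was called, against 0.14% of all genes. That gene was Rasgrp2, the exchange factor for Rap1 that starts inside-out activation. It stood at 187, 225 and 220 CPM in MFL NK cells and at 179, 124 and 114 CPM in LM CD49a- NK cells. It stood at 22.9, 64.8 and 38.5 CPM in LM CD49a+ NK cells, and at 91.6, 69.2 and 64.3 CPM in ILC1. Within metastases it fell by 1.72 ± 0.33 (adjusted p = 0.0827). No associated gene was called there in 7 of the 12 fits without 1 library, with limma-voom or in a fit of these 2 populations alone. Of all genes, limma-voom called 0% there and the fit of these 2 populations 0.0269%. Rasgrp2 also changed against MFL NK cells. It fell by 2.32 ± 0.34 in LM CD49a+ against MFL NK cells (adjusted p = 0.00256) and by 1.49 ± 0.33 in ILC1 against MFL NK cells (adjusted p = 0.0162).

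**Figure D5:**
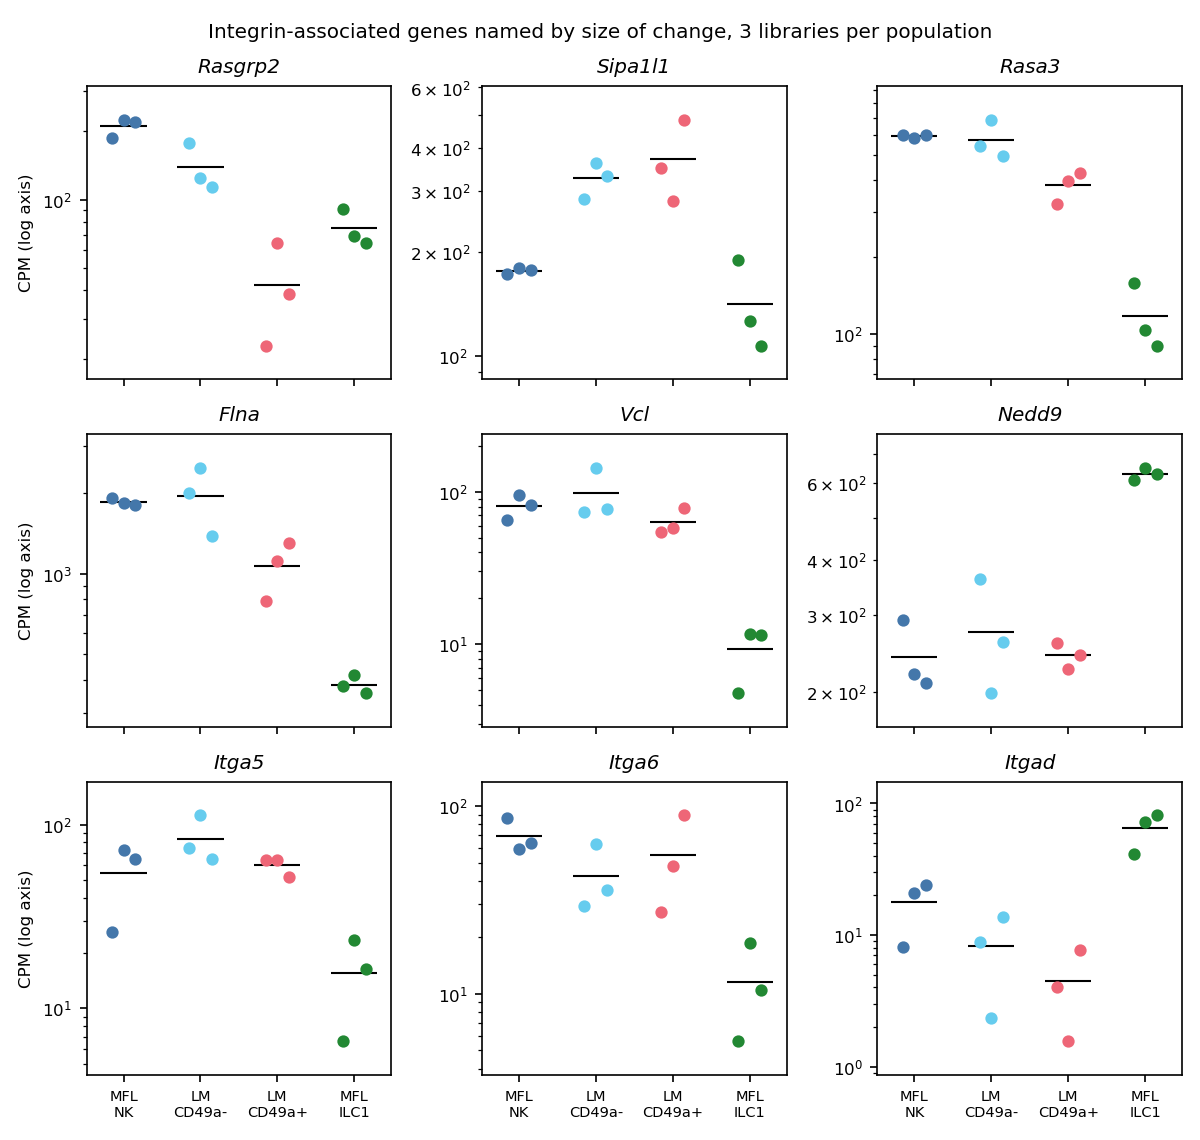
CPM of 9 integrin-associated genes on log axes, with a point for each library and a bar at the mean of 3 libraries per population. Rasgrp2 is lowest in LM CD49a+ NK cells, and Vcl, Itga5 and Itga6 are lowest in ILC1.

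Between LM CD49a+ and MFL NK cells there were 3 calls among the 75 (2 higher, 1 lower), beside 0.647% of all genes. Besides Rasgrp2 these were Sipa1l1, a Rap GTPase-activating protein (1.07 ± 0.25, adjusted p = 0.0848), and Cdh1. Cdh1 encodes E-cadherin, the ligand of alpha E beta 7. Its libraries held 14.3, 18.4 and 51.5 CPM in LM CD49a+ NK cells and 74.7, 46.8 and 46.0 CPM in ILC1. MFL NK cells held 2 counts in all, and LM CD49a- NK cells 0, 1.99 and 3.15 CPM. The epithelial marker Epcam was also higher in these populations, at 20.5, 12.4 and 20.1 CPM in ILC1 and 10.5, 5.40 and 0 CPM in LM CD49a+ NK cells, against 2.53 CPM or less in MFL NK cells, and was at 0 in every LM CD49a- library. The other 4 epithelial markers did not exceed 1.26 CPM in any lymphocyte library, and Krt19 and Cldn4 were at 0. Their part in the Cdh1 values was not tested. The ratio of summed, scaled counts to MFL NK cells was 535 in LM CD49a+ NK cells (95% exact binomial interval 148 to 4426, counting error only). The median change over the 75 genes was 0.03, beside -0.04 over all genes. LM CD49a- against MFL NK libraries gave 0 calls in edgeR, beside 0.0736% of all genes. An unadjusted p under 0.05 was reached by 11 of 75 in edgeR, beside 914 of all 13594 genes. DESeq2 gave 3 calls and limma-voom 2, beside 1.26% and 0.765% of all genes.

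ILC1 against MFL NK cells gave 12 calls of 75 (3 higher, 9 lower), beside 3.06% of all genes. Of 8 inhibitors tested 2 were lower, and of 24 adaptors and kinases 3 were lower and 1 higher. Vcl, the talin-binding adaptor vinculin, held 4.75, 11.7 and 11.6 CPM in ILC1 against 65.3, 95.7 and 81.9 CPM in MFL NK cells (-3.11 ± 0.42, adjusted p = 0.000188). Rasa3, a Rap and Ras inhibitor, fell by 2.34 ± 0.24 (adjusted p = 1.57e-05), and Flna, which competes with talin for beta chain tails, fell by 2.27 ± 0.26 (adjusted p = 3.14e-05). The laminin receptor chain Itga6 fell by 2.58 ± 0.53 (adjusted p = 0.00943) and the fibronectin receptor chain Itga5 by 1.81 ± 0.48 (adjusted p = 0.0554). The docking protein Nedd9 rose by 1.39 ± 0.24 (adjusted p = 0.00189), from 210 to 292 CPM in MFL NK cells to 610 to 651 CPM in ILC1.

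The CD49a+ NK cells of metastases against ILC1 gave 11 calls of 75 (7 higher, 4 lower), beside 3.58% of all genes. Of 8 inhibitors tested 3 were higher in the NK cells, namely Rasa3 (1.70 ± 0.24, adjusted p = 0.000467), Flna (1.48 ± 0.25, adjusted p = 0.00246) and Sipa1l1 (1.39 ± 0.25, adjusted p = 0.00491). Vcl (2.77 ± 0.41, adjusted p = 0.000802), Itga6 (2.24 ± 0.53, adjusted p = 0.0286) and Itga5 (1.95 ± 0.48, adjusted p = 0.0368) were also higher. Nedd9 was lower (-1.38 ± 0.24, adjusted p = 0.00266), as was Itgad, the alpha D chain (-3.86 ± 0.81, adjusted p = 0.0135). Itgad held 41.7, 71.7 and 81.2 CPM in ILC1 and 4.07, 1.56 and 7.77 CPM in LM CD49a+ NK cells. Of 15 activators tested 0 were called in this comparison in edgeR, where 3.58% of all genes were. An unadjusted p under 0.05 was reached by 2 of the 15, beside 1913 of all 13594 genes.

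Genes whose log2 CPM followed each chain most closely were named from 9766 genes with a mean of at least 5 CPM over the 12 libraries. The correlations are a description over libraries that form 4 populations, and carry no test. Itga4 and Itgam shared Cma1 (Pearson r = 0.987 and 0.984) and Pogk (0.981 and 0.985), with Zeb2 (0.979) next for Itga4 and Fyn (0.977) for Itgam. Itga1 was followed by 2900026A02Rik (0.962), Evl (0.944) and Tnfsf10 (0.942), and Itga2 by Lpin1 (0.985), Arhgef18 (0.976) and Klri2 (0.970). Itgb3 was followed by Ahr (0.936), 1700017B05Rik (0.899) and Dock9 (0.897). Itgb1 was followed by Pld3 (0.966), Tagln2 (0.957) and Top2a (0.952), and Itgb2 by Ccl5 (0.916), Atp2a3 (0.915) and Asap1 (0.885). For the chains called in macrophages alone the likeness was 0.923 (Spn), 0.914 (Vps35) and 0.897 (Atp2a3) for Itgal and 0.806 (Calr), 0.796 (Cxcr3) and 0.793 (Gbp2) for Itgb7, and none is given for Itgae, which was too low. Cma1 and Tnfsf10 are among the markers listed for NK cells and ILC1.

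The series also holds macrophages of the metastases, sorted as CD45+ CD11b+ cells with high or low F4/80 and sequenced with another kit, with 3 libraries each. F4/80high cells held less of 8 of 10 chains, where 54.9% of all genes were called (27.8% higher, 27.1% lower), and 62 of 88 integrin-associated genes tested were called (24 higher, 38 lower). Itgb7 stood at 20.1, 14.8 and 11.5 CPM in F4/80high and at 447, 433 and 402 CPM in F4/80low macrophages (-4.79 ± 0.20, adjusted p = 1.94e-06). Itgae stood at 2.07, 1.20 and 2.66 CPM against 44.5, 64.2 and 22.0 CPM (-4.45 ± 0.44, adjusted p = 9.54e-05). The 5 dendritic cell markers summed to 9.996, 6.80 and 6.81 CPM in F4/80high and to 290, 265 and 188 CPM in F4/80low cells, mostly Cd209a and Flt3, with Xcr1 at 4.13 CPM or less. Epcam stood at 0.360 CPM or less against 7.70 to 17.2 CPM. The part of these signals in the integrin differences was not tested. Itgal (-1.73 ± 0.15), Itgb2 (-1.29 ± 0.10) and Itga4 (-0.73 ± 0.14) were also called lower, with adjusted p of 4.26e-05, 3.29e-05 and 0.003. Itga1, Itga2 and Itgb3, also called lower, did not exceed 11 CPM in any macrophage library. Itgam, the CD11b chain required by the gate (0.11 ± 0.18), and Itgb1 (0.17 ± 0.09) were not called. The lymphocyte and macrophage tables were scaled separately, and no level was compared between them.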

How the data were processed

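RNA of sorted cells was sequenced in 12 lymphocyte and 6 macrophage libraries. Per the labels and the study's methods, the authors trimmed reads with Trim Galore and quantified transcripts with Salmon (1.5.0 for lymphocytes, 1.10.0 for macrophages) on GRCm39. Lymphocyte libraries were made with a stranded total RNA kit and macrophage libraries from poly(A) RNA. Both deposited tables hold unnormalized estimated counts by gene; how Salmon shares reads between overlapping or similar genes can shift such counts. They were rounded to whole numbers here. The macrophage table held only genes with a total of at least 37. Symbols and positions came from GENCODE vM39 by unversioned identifier (53700 of 54309 lymphocyte and 13726 of 13759 macrophage identifiers matched).

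Each table was fitted with edgeR 4.0.16 (filterByExpr, TMM, glmQLFit, glmQLFTest; R 4.3.3), 1 mean per group, all 12 lymphocyte libraries together. SE is the absolute log2 change divided by the square root of F and is approximate. Alternatives used DESeq2 1.42.0 and limma 3.58.1. The test was tried on simulated data. The members and gene lists were chosen with earlier results of these data known. Named associated genes were, per comparison, up to 8 called with the largest change and a mean of at least 5 CPM. The 3 genes most like each called chain were ranked by Pearson r (prior count 2). Intervals on counts cover counting error only. The study describes 3 independent sortings, and labels do not tie replicate numbers to them, so p-values measure the spread between these libraries. Replicate pairs of a group differed beyond sampling noise.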

Additional observations from a re-analysis of the deposited data

Results flagged for a closer look

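For 5 chains the difference between CD49a+ and CD49a- cells in metastases was not the same as that in metastasis-free liver by the interaction test in edgeR. The differences between sites, in log2, were -2.29 for Itga1 (adjusted p = 0.0712), 2.04 for Itga2 (0.0943), 2.06 for Itga4 (0.00114), 2.84 for Itgam (0.00231) and 1.40 for Itgb1 (0.0582). The first 2 genes encode the sort markers, and the gates differed between the CD49a+ cells of the sites. For Itga4 the separate changes were -1.13 ± 0.20 in metastases and -3.19 ± 0.21 in metastasis-free liver, and for Itgam -1.72 ± 0.29 and -4.56 ± 0.33. For Itgb1 they were 0.28 ± 0.23 and -1.12 ± 0.23.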

How the results depend on the processing

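The chains called within metastases numbered 3 in the fit as reported, 5 with no low-count filter, 6 with DESeq2 and 0 with limma-voom. They numbered 1 with only the 2 populations compared, and 1 to 4 without 1 library. Of all genes tested, the shares called were 0.14%, 0.91%, 4.08%, 0%, 0.0269% and 0.0345% to 1.86% in the same order. In LM CD49a- against MFL NK cells, 1 was called, 0 with only these 2 populations, and 0 to 1 without 1 library. The shares of all genes there were 0.0736%, 0.0247% and 0.00693% to 0.765%. In ILC1 against MFL NK cells 6 became 10 with limma-voom, while the share of all genes called rose from 3.06% to 19.5%. The interaction gave 5, and 2 to 5 without 1 library, with 2 left without any 1 of LM CD49a- NK replicate 1, LM CD49a+ NK replicates 2 and 3, MFL NK replicates 2 and 3, and MFL ILC1 replicates 2 and 3, and 3 left without MFL NK replicate 1, LM CD49a- NK replicate 2 or MFL ILC1 replicate 1. Of all genes, 1.03% were called in the interaction, and 0.52% to 1.78% without 1 library. Counts of called chains in LM CD49a+ NK cells against MFL NK cells and against ILC1 stayed within 1.5 times.

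Integrin-associated calls within metastases were 1, then 5 with no low-count filter, 7 with DESeq2, 0 with limma-voom, 0 with only the 2 populations compared and 0 to 4 without 1 library (0 without LM CD49a+ NK replicate 1 or 3, LM CD49a- NK replicate 1, any MFL NK replicate or MFL ILC1 replicate 2, and 4 without LM CD49a- NK replicate 3). Shares of all genes called within metastases are given above. In LM CD49a+ against MFL NK cells, 3 became 5 with no low-count filter and 7 with DESeq2 and with limma-voom. The share of all genes went from 0.647% to 1.69%, 2.86% and 2.26% in these 3 settings. In LM CD49a- against MFL NK cells, 0 became 2 with no low-count filter, 3 with DESeq2 and 2 with limma-voom. There the share of all genes went from 0.0736% to 0.719%, 1.26% and 0.765%. Without 1 library 0 to 1 were called (1 without LM CD49a- NK replicate 2, where 0.592% of all genes were). In ILC1 against MFL NK cells, 12 became 36 with limma-voom and 26 with only the 2 populations. The share of all genes rose alongside, from 3.06% to 19.5% and 9.61%. Without 1 library 7 to 14 were called (7 without MFL ILC1 replicate 3), beside 1.86% to 3.87% of all genes. In LM CD49a+ NK cells against ILC1, 11 became 17 with DESeq2 and 7 to 14 without 1 library (7 without MFL ILC1 replicate 3). Of all genes, 3.58% became 7.75% and 1.79% to 4.87% in these settings. The cause was not tested.

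Changes that turned sign were all uncalled in the fit as reported. Itgae turned with limma-voom to -0.86 (LM CD49a+ against MFL NK), -4.09 (ILC1 against MFL NK, adjusted p = 0.017) and 3.22 (LM CD49a+ NK against ILC1). Without 1 library it ranged from -2.44 to 1.09, from -6.29 to 1.36 and from -2.90 to 6.49 in these comparisons and from -0.38 to 9.02 in the interaction. In LM CD49a- against MFL NK cells, Itga1 turned to 0.047 with DESeq2 size factors, 0.049 with DESeq2, 0.15 with limma-voom and 0.021 with the replicate block, and without 1 library ranged from -0.43 to 0.66, Itgam from -0.29 to 0.017 and Itgb7 from -0.20 to 0.046. In the interaction, Itgal turned to -0.025 with DESeq2 size factors and -0.025 with DESeq2, Itgb2 to 0.030 with the replicate block, and without 1 library they ranged from -0.056 to 0.19 and from -0.15 to 0.27. Itgam in macrophages ranged from -0.072 to 0.29.

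The study describes 3 independent sortings, and the labels do not say whether the replicate numbers mark them. Deviations of same-numbered lymphocyte libraries from their own group means, in log2 CPM, had correlations of -0.045 to 0.098. The numbers were not taken to pair the samples. With the replicate block Itga2 in LM CD49a+ against MFL NK cells became -1.49 (adjusted p = 0.0979), Itgb2 in ILC1 against MFL NK cells -0.86 (0.0746) and Itga2 in the interaction 1.95 (0.128), with no other chain crossing the threshold. With limma-voom the median change of all genes was -0.27 in LM CD49a+ against MFL NK cells, beside -0.040 in the fit as reported. It was -0.36 beside -0.085 in LM CD49a- against MFL NK cells, and -0.28 beside -0.067 in LM CD49a+ NK cells against ILC1. Using the longest transcript as gene length moved several alpha shares by more than 1 SD. Itga1 became 0.161%, 3.63% and 20.4% in LM CD49a- NK, LM CD49a+ NK and ILC1, and Itga2 6.83% and 6.66% in MFL and LM CD49a- NK. Itga4 became 29.4%, 27.2%, 23.0% and 7.92%, and Itgam 27.02%, 28.2% and 2.82% (without LM CD49a+ NK), in the order used above. Itgal in ILC1 became 66.9%. Of the beta shares, an alternative added after the data were seen, Itgb1 in LM CD49a+ NK cells moved from 37.1% to 39.5%, beyond its SD, and Itgb2 from 36.7% to 35.0%. Libraries from metastases varied more among themselves, and the part of this spread in the calls was not tested.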

Other observations

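The called integrin-associated genes that the naming rule left out were Itgav, Fyn, Zyx, Rap1b, Itgax and Cd47, and they are named after their values were seen. Itgav, the alpha V chain that pairs with beta 3, stood at 201, 226 and 182 CPM in ILC1 and at 73.4, 110 and 102 CPM in MFL NK cells (1.09 ± 0.28, adjusted p = 0.0536 in edgeR). LM CD49a+ NK cells held 71.4, 97.5 and 94.1 CPM, less than ILC1 (-1.21 ± 0.29, adjusted p = 0.0296). The population with the most Itgb3, LM CD49a+ NK cells, thus did not hold the most Itgav. Itga2b, the other known partner of beta 3, did not exceed 5.05 CPM in any lymphocyte library. Itgax, the CD11c chain, stood at 658 to 803 CPM in ILC1 and at 372 to 414 CPM in LM CD49a+ NK cells (-0.89 ± 0.21, adjusted p = 0.0293). In ILC1 against MFL NK cells, the kinase Fyn (-1.31 ± 0.21, adjusted p = 0.000969), the adhesion adaptor Zyx (-0.87 ± 0.24, adjusted p = 0.0709) and the GTPase Rap1b (-1.04 ± 0.25, adjusted p = 0.034) were lower. Cd47 was higher in LM CD49a+ NK cells than in ILC1 (0.77 ± 0.22, adjusted p = 0.0899).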
